A study of Mus musculus with 29 samples.

Results

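Glucose uptake, glycolysis and the target genes of hypoxia-inducible factor 1 alpha (HIF1A) were followed through 34 named genes in microglia, the resident macrophages of the brain. The genes were taken from the deposited count table by mouse gene symbol. All 34 symbols had an entry among the 36982 genes listed, and 32 of them had enough reads to be tested. The other two, Egln3 and Vegfa, were near 0 in every library.

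The study sequenced RNA of sorted brain microglia, all of male mice of the C57BL/6J strain given 2 intraperitoneal injections 5 weeks apart. It asks whether microglia that grow back after depletion respond to lipopolysaccharide (LPS, a bacterial cell wall component) as original microglia do, and whether an earlier LPS exposure still shows. All mice were 10 weeks old at the first injection and 15 weeks old at collection, 3 h after the second injection. Each injection was 1 mg/kg LPS (L) or saline (P). Starting 1 week after the first injection, mice of the groups with a B in their name were gavaged with BLZ945, an inhibitor of the CSF1R receptor that microglia need to survive, at 169 mg/kg per day for 5 days, and all other mice were gavaged with vehicle. PP (n = 5) received saline each time. PL (n = 4) received saline first and LPS second, and LL (n = 5) received LPS each time. PBP (n = 5), PBL (n = 5) and LBL (n = 5) received the same injections as PP, PL and LL, with BLZ945 in between. Counts from sorted cells in bulk do not separate microglia that survived BLZ945 from those that grew back.

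Total counts lay between 5670450 and 12671476 over the 29 libraries. All 10 microglia markers examined were detected in every group, with a summed level of 34000 to 73400 CPM (counts scaled to library size). The sorter was not balanced over the groups: PP, PL and 4 of 5 PBP libraries came from a MoFlo Astrios, while PBP replicate 5 and all PBL, LL and LBL libraries came from a MoFlo XDP, so for LL against PP or PL and for PBL against PL the sorter and the treatment cannot be told apart. PBP replicate 5 stood apart from its group, with a summed level of 11 neuron markers of 175 CPM against 26.3 to 50.2 in the other PBP libraries. PP and PL libraries had 11.9 to 52.7 CPM of neuron markers, PBL libraries had 123 to 244, LL libraries 52.7 to 235 and LBL libraries 89 to 230. Neutrophil markers summed to 123 to 469 CPM in PBL and to at most 31.5 CPM in any other library. RNA quality numbers were 8.6 to 9.1 in PP, 8.8 to 9 in PBP replicates 1 to 4, 7.4 in PBP replicate 5 and 7.4 to 7.9 in PBL. After repeated LPS they were 7.9 to 8.9 (LL) and 7.6 to 8.9 (LBL). PL replicate 3 had the lowest, 6.5, and the other PL libraries had 8.4 to 9.1. Sorting day also followed the groups: day 5 for PP, days 4 and 5 for PL, day 4 for PBP replicates 1 to 4, day 3 for PBL and PBP replicate 5, and days 1 and 2 for LL and LBL.

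Glycolysis splits glucose into pyruvate in the cytosol. Glucose enters through GLUT carriers, hexokinase traps it, and phosphofructokinase sets the pace under the control of fructose 2,6-bisphosphate, which the PFKFB enzymes make and remove. Pyruvate is then turned into lactate by lactate dehydrogenase or passed to mitochondria through pyruvate dehydrogenase, which the PDK kinases switch off. HIF1A is a transcription factor that prolyl hydroxylases mark for destruction when oxygen is plentiful. It raises most of these genes in low oxygen, and in macrophages it is also engaged by LPS.

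HIF1A and its partner ARNT bind the core ACGTG or GCGTG. To show where such letters lie, 250 bases upstream of the start site are printed for 6 members that were called in both comparisons of a first LPS injection with saline, chosen as examples after their values were seen: Slc2a1, Pfkfb3, Ldha and Adm, which rose after LPS, and Pdk1 and Ankrd37, which fell. The windows are RefSeq promoters on GRCm38.p6: Slc2a1 at chr4:119108495-119108744 (plus strand), Pfkfb3 at chr2:11553930-11554179 (minus strand), Ldha at chr7:46845554-46845803 (plus), Adm at chr7:110627407-110627656 (plus), Pdk1 at chr2:71872974-71873223 (plus) and Ankrd37 at chr8:45999851-46000100 (minus). Each is written 5′ to 3′ on the strand of its gene, and the capitals mark ACGTG or GCGTG, or CACGT or CACGC where the core lies on the opposite strand. Where a gene had more than 1 window, the first listed is shown.
Slc2a1: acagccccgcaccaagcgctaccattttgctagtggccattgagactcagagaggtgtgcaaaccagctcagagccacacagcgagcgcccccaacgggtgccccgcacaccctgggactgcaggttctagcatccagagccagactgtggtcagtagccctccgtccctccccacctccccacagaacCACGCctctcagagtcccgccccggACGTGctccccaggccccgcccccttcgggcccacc
Pfkfb3: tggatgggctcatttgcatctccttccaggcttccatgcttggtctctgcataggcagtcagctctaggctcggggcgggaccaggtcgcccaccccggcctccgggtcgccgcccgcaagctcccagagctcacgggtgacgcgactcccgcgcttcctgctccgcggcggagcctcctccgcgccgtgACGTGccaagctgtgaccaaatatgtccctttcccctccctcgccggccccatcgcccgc
Ldha: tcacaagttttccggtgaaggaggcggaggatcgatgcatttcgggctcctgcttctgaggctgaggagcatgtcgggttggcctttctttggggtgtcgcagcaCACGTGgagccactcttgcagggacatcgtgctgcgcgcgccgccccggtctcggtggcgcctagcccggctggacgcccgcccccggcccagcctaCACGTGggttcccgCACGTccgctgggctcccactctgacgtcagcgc
Adm: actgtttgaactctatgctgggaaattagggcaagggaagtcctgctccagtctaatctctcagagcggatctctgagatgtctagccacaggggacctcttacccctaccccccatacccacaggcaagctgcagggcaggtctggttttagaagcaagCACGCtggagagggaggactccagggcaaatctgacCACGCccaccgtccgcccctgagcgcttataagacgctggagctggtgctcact
Pdk1: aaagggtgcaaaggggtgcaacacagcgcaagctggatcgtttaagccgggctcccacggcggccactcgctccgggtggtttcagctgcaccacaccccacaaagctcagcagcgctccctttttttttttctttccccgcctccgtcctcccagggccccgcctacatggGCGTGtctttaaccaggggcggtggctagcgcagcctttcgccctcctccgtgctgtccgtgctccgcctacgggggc
Ankrd37: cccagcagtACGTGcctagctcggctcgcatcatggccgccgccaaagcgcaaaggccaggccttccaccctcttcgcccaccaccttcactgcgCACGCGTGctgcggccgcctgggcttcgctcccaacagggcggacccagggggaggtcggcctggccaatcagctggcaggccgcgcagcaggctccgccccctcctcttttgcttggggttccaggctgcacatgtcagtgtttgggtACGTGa

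These 5 letters were found on either strand in 1 place or more in all 6 printed windows. Ldha held 5 matches, of which 2 pairs overlapped as the palindrome CACGTG, at 34 to 145 bases before the start site. Ankrd37 held 4, Slc2a1 and Adm held 2 each, and Pfkfb3 and Pdk1 held 1 each, 60 and 78 bases before the start. RefSeq promoters were matched by symbol for 32 of the 34 members (not Ndrg1 or Slc2a3), and 29 of these 32 (90.6%) had a match in at least 1 window, against 41.5% of 27025 genes. By window, 38 of 47 member windows (80.9%) and 38.6% of all 32851 windows had one. Members that rose, fell or were not called all occur among the 29, and a match of 5 letters is a description, not a binding site. The members were listed as glycolysis and HIF1A target genes, so these shares are no test of them. The genes set beside them were not matched for expression, base content or number of windows.

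First LPS exposure was read from PL against PP in mice never depleted, and from PBL against PBP in repopulated mice. These comparisons share no library. In PL against PP, glucose transporters, the activator Pfkfb3, lactate dehydrogenase A and the peptide hormone gene Adm rose. The 7 members that fell were Hk1, Hk3, Pfkl, Pfkfb4, Tpi1, Pdk1 and Ankrd37. Calls were made at an adjusted p under 0.05 (edgeR quasi-likelihood test, Benjamini-Hochberg over 16632 genes). Higher calls took in 5 of 32 tested members (15.6%) beside 14.2% of all genes tested, which is near the background, and lower calls took in 7 (21.9%) beside 11.9%. Either way, 26.2% of all genes were called. Adm passed the filter on low counts only through its PL and PBL libraries, so that it had to differ, and without it 4 of 31 members rose (12.9%). The median log2 fold change was -0.10 over the members and 0.00 over all genes. All PL and PP libraries came from the same sorter. Of 10 microglia markers, 7 were called lower in PL, and none of the 6 tested neutrophil markers and 1 of 10 tested neuron markers (higher) was called. Astrocyte markers summed to 424 to 583 CPM in PP and 746 to 1020 in PL, without overlap, and 1 of 9 tested was called higher, as was 1 of 4 monocyte markers. Their part was not tested.

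In PBL against PBP, 8 of 32 members (25%) were called higher beside 21.5% of all genes, and 15 (46.9%) were called lower beside 21.5% (43.1% of all genes either way). Without Adm, 7 of 31 rose. The 5 members that rose in PL rose here too, together with Pfkp, Eno2 and Hif1a. Of the 7 that fell in PL, 6 also fell here, among 15 in all: Hk3, Pfkl, Pfkfb4, Tpi1, Pdk1 and Ankrd37. Added to these were Hk2, Aldoa, Pgam1, Eno1, Ldhb, Slc16a1, Egln1, Bnip3 and P4ha1. How many of all genes were called in both comparisons was not counted, so the overlap is a description and not a trait of the members. Adm, among the 5 shared rises, passed the filter only through PL and PBL libraries. The median log2 fold change was -0.21 over the members and 0.01 over all genes. In the fit with the sorter as a covariate, which here rests on PBP replicate 5 alone, 5 members were higher (Slc2a1, Slc2a3, Pfkfb3, Ldha and Hif1a) and 2 lower (Pfkfb4 and Pdk1), and the XDP libraries on their own gave the same counts. In PBL against PBP, 9 of 10 microglia markers were called lower, and all 6 tested neutrophil markers, 7 of 10 tested neuron markers and 6 of 9 tested astrocyte markers higher. Of 5 tested red blood cell markers, 4 were called higher. The defining neutrophil markers Ly6g, Mmp8 and Cxcr2 were at 0 in all PBP libraries and were detected in PBL. RNA quality was lower in all PBL libraries than in PBP replicates 1 to 4. The part of these cell types and of RNA quality in the counts was not tested.

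**Figure D1:**
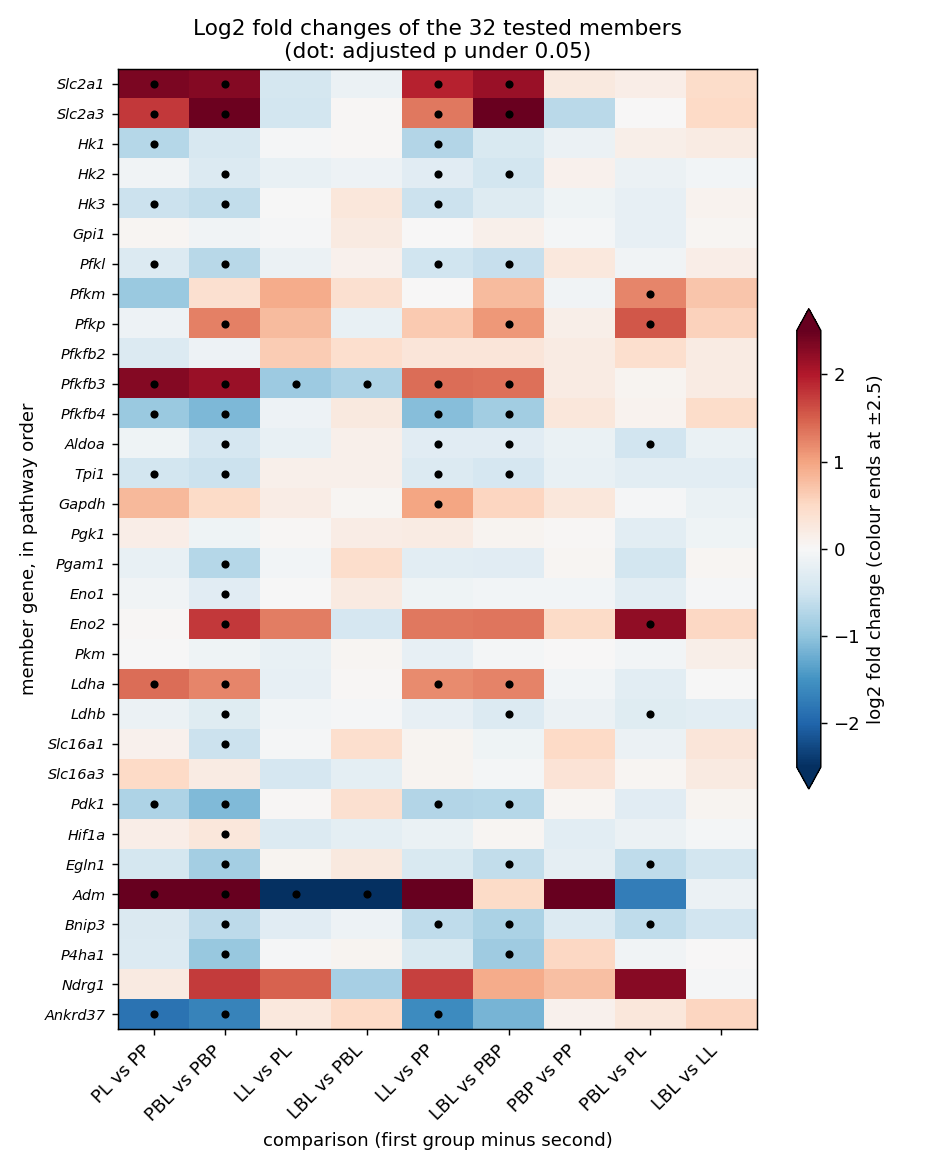
Log2 fold change of the 32 tested members (vertical axis, in pathway order) in 9 comparisons between groups (horizontal axis), coloured from blue (lower in the first group) to red (higher), with a dot where the adjusted p was under 0.05. Slc2a1, Slc2a3, Pfkfb3 and Ldha were called higher in all 4 comparisons of an LPS group with a saline group, most other dots in those columns are blue, and Adm colours rest on counts at or near 0 and are no measure of size.

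The basal glucose transporter GLUT1 (Slc2a1, ENSMUSG00000028645, chromosome 4) rose in both comparisons. Its level was 63.8, 68.6, 52.0, 66.7 and 72.0 CPM in the PP libraries and 273, 371, 365 and 312 in PL. In PBP it was 65.6, 89.4, 67.7, 87.6 and 70.4 CPM, and in PBL 508, 353, 432, 301 and 268. Every LPS library thus lay above every saline library, by a wide gap. The rise in PL against PP was 2.35 ± 0.15 on the log2 scale (SE; adjusted p = 1.44e-14). It was 2.29 ± 0.15 (adjusted p = 8.33e-15) in PBL against PBP. After repeated LPS the level was 250, 261, 234, 200 and 280 CPM in LL and 345, 301, 434, 308 and 304 in LBL, still above all saline libraries.

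GLUT3 (Slc2a3, ENSMUSG00000003153, chromosome 6), a high-affinity transporter best known from neurons, was read at 10.4, 12.4, 4.05, 5.04 and 19.8 CPM in PP. The PL libraries read 39.1, 46.2, 26.5 and 29.6. No PL library overlapped PP. Levels were 3.57, 5.27, 7.79, 5.99 and 10.3 CPM in PBP, and 21.9, 34.1, 51.0, 33.7 and 36.1 in PBL. The highest PBP library was replicate 5, and it too lay below all PBL libraries. The log2 fold changes were 1.77 ± 0.33 (adjusted p = 0.000114) and 2.45 ± 0.33 (adjusted p = 5.52e-07). LL ran from 22.4 to 30.2 CPM and LBL from 25.0 to 64.8.

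**Figure D2:**
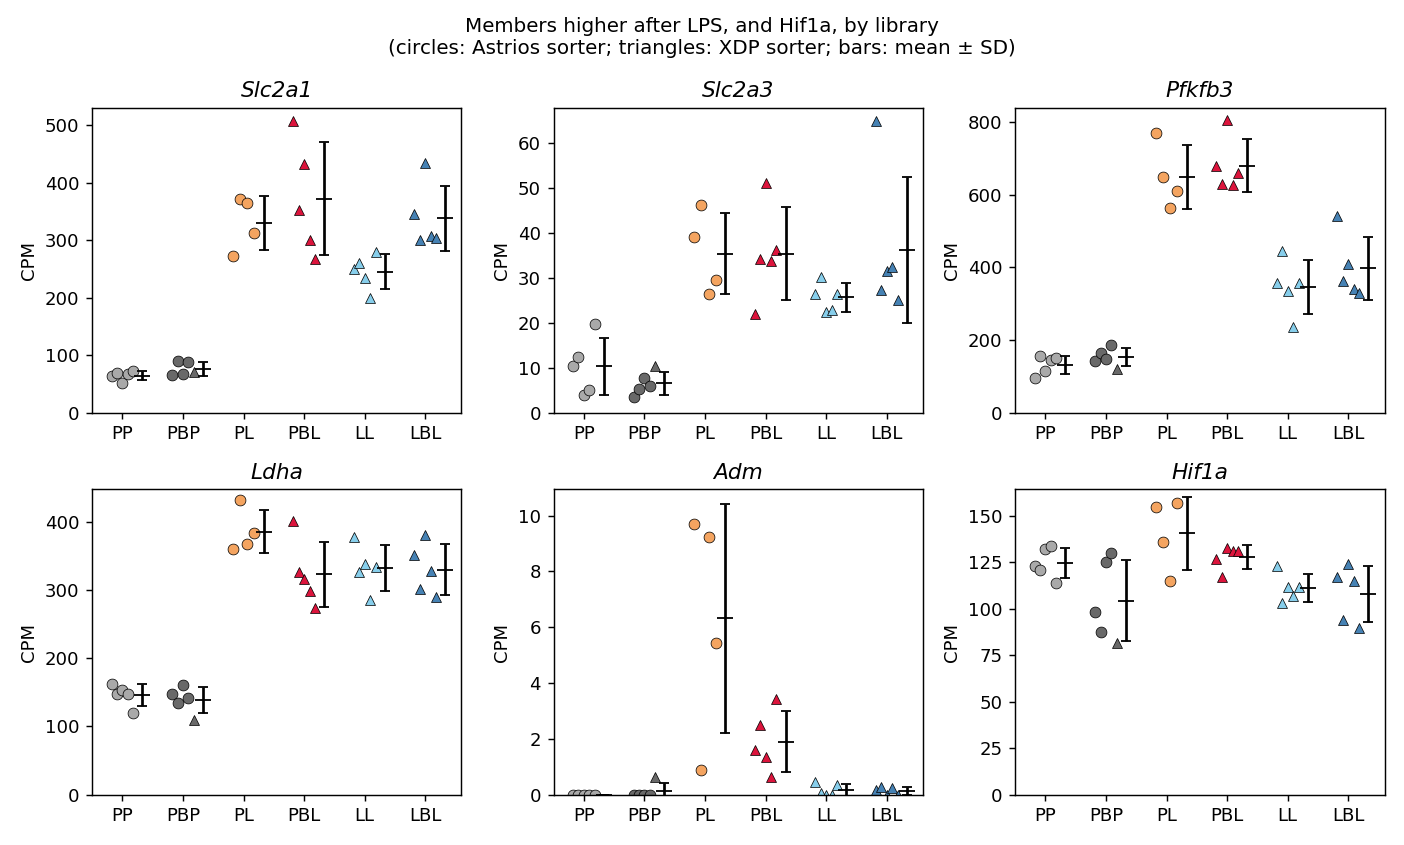
CPM (vertical axes, from 0) of 6 members in each library by group (horizontal axes), circles for the Astrios sorter and triangles for the XDP, with the group mean ± SD as bars. Slc2a1, Slc2a3, Pfkfb3 and Ldha lie higher in all 4 LPS groups than in PP and PBP, Pfkfb3 is intermediate in LL and LBL, Adm is at or near 0 outside PL and PBL, and Hif1a overlaps between groups.

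The hexokinases, which trap glucose as glucose 6-phosphate, were not called higher in either comparison, unlike the transporters. Hk2, the inducible form, was at 283 ± 34 CPM in PP and 266 ± 43.5 in PL (SD, n = 5 and 4), with overlapping libraries and a log2 fold change of -0.09 ± 0.10 (adjusted p = 0.562). In repopulated mice it was 305 ± 26.2 in PBP and 241 ± 14.1 in PBL, a log2 fold change of -0.34 ± 0.10 (adjusted p = 0.00542). Hk3, a form found in blood and immune cells, fell by 0.53 ± 0.15 in PL (adjusted p = 0.00613) and by 0.61 ± 0.14 in PBL (adjusted p = 0.00052) on the log2 scale. Hk1 fell by 0.71 ± 0.26 in PL (adjusted p = 0.0371). That call was lost without any 1 of 6 libraries (PP replicates 3 and 4 and each PL replicate) and within sorting day 5 (adjusted p 0.0558 to 0.128).

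Within the phosphofructokinase step, genes of the enzyme and of its PFKFB regulators were called in both directions. Pfkl, the liver-type subunit, fell by 0.34 ± 0.13 (adjusted p = 0.0408) in PL and by 0.69 ± 0.12 (adjusted p = 1.53e-05) in PBL on the log2 scale. The first of these calls was lost when any of 6 single libraries was left out (adjusted p 0.0653 to 0.15). Gpi1, the isomerase before it, was not called in any comparison and stayed between 43.5 and 77.0 CPM over all libraries.

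Pfkfb3 (ENSMUSG00000026773, chromosome 2) encodes the form with the strongest bias towards making the activator fructose 2,6-bisphosphate. It was at 96.3, 155, 115, 144 and 150 CPM in PP and at 770, 648, 564 and 610 in PL. In PBP it was at 142, 165, 148, 186 and 121 CPM, and in PBL at 679, 629, 805, 627 and 661. All LPS libraries lay above all saline libraries. The log2 fold change was 2.29 ± 0.16 (adjusted p = 7.29e-14) in PL and 2.16 ± 0.15 (adjusted p = 9.09e-14) in PBL.

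Pfkfb4 (ENSMUSG00000025648, chromosome 9), a second PFKFB gene and itself a known HIF1A target, went the other way. Its level was 91.2, 98.6, 66.6, 74.4 and 72.2 CPM in PP, and 36.5, 54.7, 41.3 and 38.1 in PL. It was 88.5, 101, 102, 117 and 80.8 CPM in PBP, and 42.1, 45.3, 47.1, 39.9 and 50.5 in PBL. Again the groups did not overlap, but here LPS libraries were the low ones. On the log2 scale the change was -0.92 ± 0.15 (adjusted p = 1.59e-05) in PL and -1.12 ± 0.14 (adjusted p = 9.82e-08) in PBL. Pfkfb2, the heart form, had 0.926 to 8.39 CPM and was not called in any comparison.

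From aldolase to pyruvate kinase, 1 of 8 members fell in PL and none was called higher, and in PBL 4 fell and 1 rose. Of all genes tested, 14.2% were called higher and 11.9% lower in PL, and 21.5% each way in PBL. Tpi1, triose phosphate isomerase, was at 74.0 to 95.7 CPM in PP and 53.8 to 67.7 in PL, without overlap, and fell by 0.46 ± 0.13 on the log2 scale (adjusted p = 0.00674). In PBL it fell by 0.54 ± 0.12 (adjusted p = 0.000663). Aldoa, the main aldolase, was at 288 to 350 CPM in PBL and 319 to 449 in PBP, a log2 fold change of -0.41 ± 0.09 (adjusted p = 0.000355). With the sorter as a covariate the Aldoa difference was -0.06 (adjusted p = 0.871). Pgam1 and Eno1 fell in PBL by 0.71 ± 0.20 (adjusted p = 0.00415) and 0.29 ± 0.11 (adjusted p = 0.029). The Eno1 call was lost with DESeq2 (adjusted p = 0.0616), with RLE scaling (0.0651), without the low-count filter (0.0529) and without any 1 of 5 single libraries (PBP replicates 1 and 3 and PBL replicates 2, 4 and 5; 0.0599 to 0.0742). Pkm, pyruvate kinase, was at 128 to 188 CPM over all libraries and was not called in any comparison.

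Gapdh and Pgk1, which are abundant in most cells, were counted at only 2.28 to 10.7 and 4.37 to 10.5 CPM. In the GENCODE M21 transcripts, 25.1% of the 50-base runs of Gapdh and 53.9% of those of Pgk1 also occur in other genes, 223 of them for Gapdh. The shares were 47.2% for Bnip3, 36.2% for Pgam1, 26.0% for Eno1, 25.8% for Pkm, 21.0% for Ldhb, 17.3% for Pfkfb2, 17.0% for Ankrd37, 15.8% for Gpi1 and 9.26% for Ldha. Values of these genes are therefore uncertain, since how shared reads were counted is not given in the sources used here. Slc2a1 (1.54%), Pfkfb3 (0.376%), Pfkfb4, Pdk1 and Adm (0 each) share few runs or none.

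At the end of the chain, Ldha (ENSMUSG00000063229, chromosome 7), the lactate dehydrogenase subunit that favours lactate, rose, while Ldhb, the subunit that favours pyruvate, was not called higher. Ldha was at 162, 148, 153, 148 and 120 CPM in PP and 360, 431, 367 and 384 in PL. It was at 148, 135, 161, 142 and 109 CPM in PBP and 401, 326, 316, 298 and 274 in PBL. No LPS library reached down to a saline one. Its log2 fold change was 1.39 ± 0.11 (adjusted p = 6.28e-12) in PL and 1.21 ± 0.11 (adjusted p = 4.41e-11) in PBL. The Ldhb difference was -0.14 ± 0.10 (adjusted p = 0.336) in PL and -0.30 ± 0.10 (adjusted p = 0.0108) in PBL, and 0.04 with the sorter as a covariate.

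Pdk1 (ENSMUSG00000006494, chromosome 2), the kinase that holds pyruvate back from mitochondria and a classical HIF1A target, fell. Its level was 125, 122, 115, 104 and 118 CPM in PP, and 78.8, 70.4, 49.4 and 74.6 in PL. It was 133, 117, 102, 143 and 105 CPM in PBP, and 67.6, 54.5, 41.3, 55.2 and 60.8 in PBL. All LPS libraries were lower than all saline libraries. This gave a log2 fold change of -0.78 ± 0.15 (adjusted p = 9.61e-05) in PL and -1.10 ± 0.14 (adjusted p = 5.99e-08) in PBL. Of the lactate carriers, Slc16a1 (MCT1) differed by 0.11 ± 0.22 in PL (adjusted p = 0.762) and fell by 0.53 ± 0.20 in PBL (adjusted p = 0.0345), a call not made with DESeq2 (adjusted p = 0.0616). Slc16a3 (MCT4), the carrier usually linked to lactate export, was at 11.5 to 48.1 CPM and not called in any comparison.

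**Figure D3:**
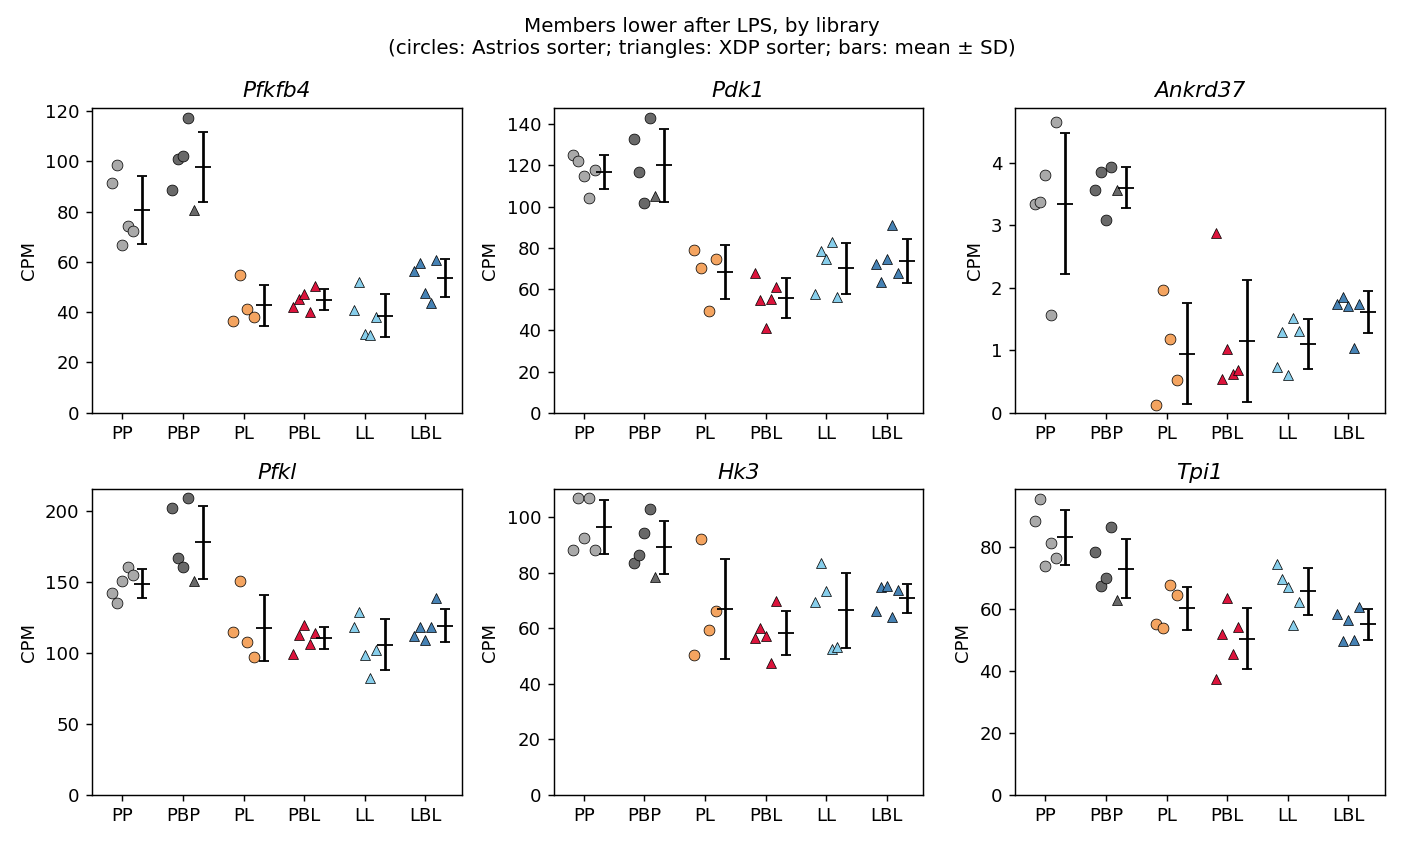
CPM (vertical axes, from 0) of 6 members that fell after a first LPS injection, in each library by group (horizontal axes), circles for the Astrios sorter and triangles for the XDP, with mean ± SD as bars. Pfkfb4 and Pdk1 are lower in every PL and PBL library than in any PP or PBP library, while Hk3, Pfkl and Ankrd37 have PL libraries that overlap PP.

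Transcript levels of Hif1a itself moved little. Hif1a, on chromosome 12, was at 125 ± 8.04 CPM in PP, 141 ± 19.4 in PL, 104 ± 21.9 in PBP and 128 ± 6.29 in PBL (SD, n = 5, 4, 5 and 5), and the PL and PP libraries overlapped. The log2 fold change was 0.17 ± 0.12 (adjusted p = 0.321) in PL and 0.29 ± 0.12 (adjusted p = 0.0429) in PBL. That second call was lost without the low-count filter (adjusted p = 0.0919). It was also lost when any 1 of PBP replicates 1, 2 and 5 and PBL replicates 1, 3, 4 and 5 was left out (adjusted p 0.0549 to 0.128). Egln1, the main prolyl hydroxylase that marks HIF1A, differed by -0.45 ± 0.20 in PL (adjusted p = 0.0946) and fell by 0.86 ± 0.19 in PBL (adjusted p = 0.000494). Egln3, a hydroxylase that HIF1A induces, had 0 to 0.947 CPM, with 47 counts over the 29 libraries.

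The other HIF1A targets did not move as a block. Adm (ENSMUSG00000030790, chromosome 7), which encodes the vasodilator peptide adrenomedullin, had 0 counts in all 5 PP libraries and 9.71, 0.891, 9.23 and 5.43 CPM in PL. With 202 counts in PL it was at least 90.1-fold higher than the level of 3 counts over the PP group. In PBP it was at 0 in 4 libraries and 0.621 CPM (4 counts) in replicate 5, and in PBL it was at 1.61, 2.49, 1.36, 0.621 and 3.42 CPM. The ratio of pooled counts in PBL to PBP was 20.5 (95% interval 7.59 to 77.5, counting error only). Against PBP replicate 5 in the fit with the sorter, the Adm difference did not pass (adjusted p = 0.538). PL replicate 2 was low beside the other PL libraries but above every PP library.

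Ankrd37 (ENSMUSG00000050914, chromosome 8), a small ankyrin protein gene known as a sensitive HIF1A target, fell. It was at 3.35, 3.37, 3.80, 1.56 and 4.66 CPM in PP and 0.124, 1.96, 1.18 and 0.529 in PL, where PL replicate 2 overlapped PP replicate 4. It was at 3.57, 3.86, 3.09, 3.93 and 3.57 CPM in PBP and 2.87, 0.533, 1.02, 0.621 and 0.683 in PBL, without overlap. On the log2 scale the change was -1.84 ± 0.53 (adjusted p = 0.00831) in PL and -1.66 ± 0.48 (adjusted p = 0.00604) in PBL.

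Bnip3, a mitophagy receptor, and P4ha1, a collagen prolyl hydroxylase subunit, fell in PBL against PBP by 0.66 ± 0.16 (adjusted p = 0.0009) and 0.95 ± 0.16 (adjusted p = 7.5e-06) on the log2 scale. In PL against PP they differed by -0.36 ± 0.16 (adjusted p = 0.0968) and -0.34 ± 0.16 (adjusted p = 0.128). Vegfa, the angiogenic factor that is the textbook HIF1A target, had at most 0.896 CPM in any library and 25 counts in all. Ndrg1, a stress-induced gene, had 0 to 5.91 CPM and was not called in any comparison.

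Eno2 and Pfkp, which encode the neuronal enolase and the platelet subunit of phosphofructokinase, were called higher in PBL against PBP and against PL. Pfkm, which encodes the muscle subunit, was called higher in PBL against PL but not against PBP. Most tested neuron markers were called higher in PBL against either group. Eno2 (ENSMUSG00000004267, chromosome 6) was at 0.865, 1.41, 2.69, 1.88 and 4.19 CPM in PBP and 1.79, 5.68, 12.1, 8.85 and 8.47 in PBL. In PL it was at 2.36, 3.03, 0.947 and 0.132. PBP replicate 5 was the highest of its group, and PBL replicate 1 lay within the PBP range. Its log2 fold change was 1.76 ± 0.55 (adjusted p = 0.0104) against PBP and 2.21 ± 0.62 (adjusted p = 0.0121) against PL.

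Pfkp (ENSMUSG00000021196, chromosome 13) was at 6.92, 8.62, 6.45, 5.36 and 14.6 CPM in PBP and 12.4, 13.3, 27.4, 25.9 and 21.0 in PBL. PBP replicate 5 again stood highest and overlapped PBL. The PL libraries were at 10.2, 6.60, 5.44 and 5.03 CPM, all below PBL. This gave a log2 fold change of 1.27 ± 0.31 (adjusted p = 0.00118) against PBP and 1.55 ± 0.34 (adjusted p = 0.00218) against PL. Pfkm (ENSMUSG00000033065, chromosome 15) was at 2.99, 3.39, 2.25 and 2.51 CPM in PL and 3.58, 8.17, 6.46, 7.14 and 6.97 in PBL, which did not overlap, with a log2 fold change of 1.22 ± 0.43 (adjusted p = 0.0378). That call was lost without any 1 of 8 of these 9 libraries, the exception being PBL replicate 1 (adjusted p 0.0526 to 0.0808). Against PBP, Pfkm differed by 0.39 ± 0.38 (adjusted p = 0.42). It was at 4.32 to 6.34 CPM in PP and 3.03 to 8.10 in PBP, where replicate 5 had 3.42.

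Of the 10 neuron markers tested, 7 were called higher in PBL against PBP and 8 in PBL against PL, and none lower. Their summed level was 123 to 244 CPM in PBL and 24.8 to 52.7 in PL. In the fit with the sorter as a covariate, none of the 5 calls of these 3 genes in PBL was kept, with adjusted p between 0.661 and 0.961. The log2 fold changes in that fit were 0.82 against PBP and 0.92 against PL for Eno2, 0.46 and 0.45 for Pfkp, and 1.85 against PL for Pfkm. The part of neuronal transcripts or of the sorter in these differences was not tested. In bulk samples, fewer cells of a type and less RNA per cell cannot be told apart, nor can more of either.

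**Figure D4:**
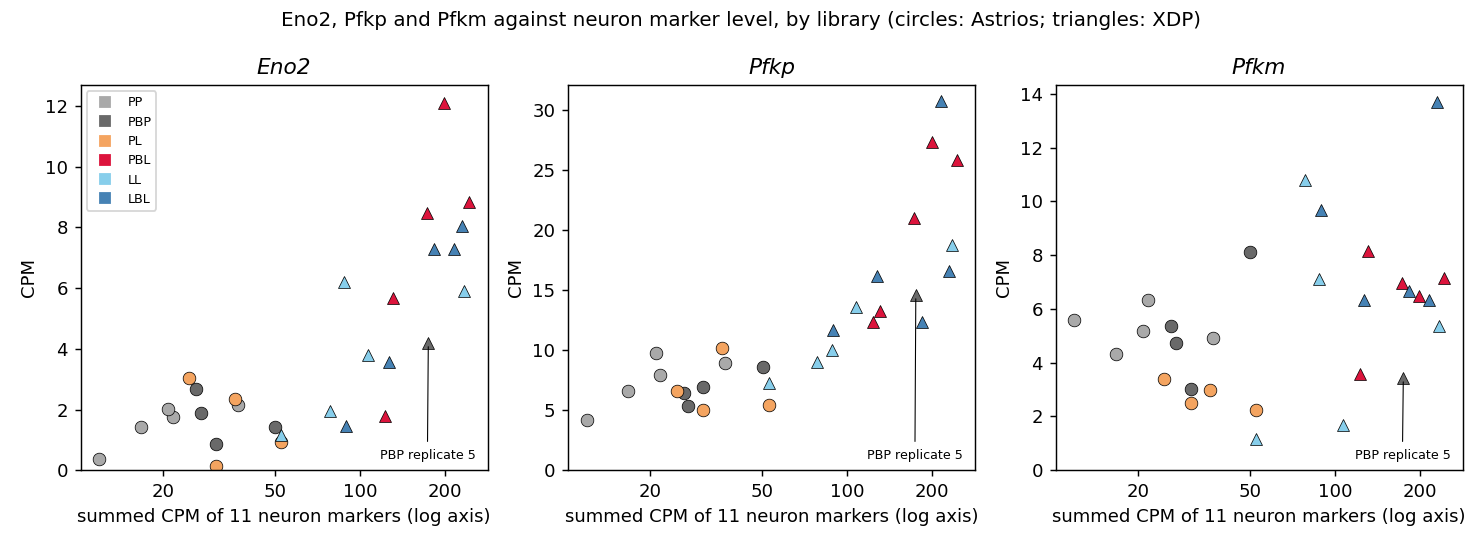
CPM of Eno2, Pfkp and Pfkm (vertical axes, from 0) against the summed CPM of 11 neuron markers (horizontal log axes), 1 point per library, coloured by group, circles for the Astrios sorter and triangles for the XDP. Neuron markers reach at most 52.7 CPM in Astrios libraries, PBP replicate 5 (175 CPM) lies apart from the other PBP libraries, and the highest Eno2 and Pfkp values are in PBL and LBL libraries, among those with many neuron reads.

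Earlier LPS was examined by comparing the response to a second injection with that to a first: LL against PL without depletion and LBL against PBL with it. Neither pair of groups shared a sorting day, so that day and earlier LPS cannot be told apart. Only Pfkfb3 and Adm were called in these comparisons, both lower after earlier LPS in each. Lower calls took in 2 of 32 members (6.25%) beside 2.03% of all genes in LL against PL, and 2 of 32 beside 4% in LBL against PBL. Either way, 2.78% and 6.74% of all genes were called. No member was called higher in either comparison by edgeR, where 7 and 8 members respectively had an unadjusted p under 0.05 in either direction, or by DESeq2. The background for higher calls was 0.752% and 2.74%. Since Adm passed the filter through PL and PBL only, Pfkfb3 is the 1 call among the other 31 members in each comparison.

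Pfkfb3 was at 358, 445, 335, 236 and 357 CPM in LL and 542, 363, 409, 342 and 330 in LBL. Both groups lay between saline and first-LPS libraries, with no overlap with either PL or PBL. The log2 fold change was -0.90 ± 0.15 (adjusted p = 0.000235) in LL against PL and -0.78 ± 0.15 (adjusted p = 0.000594) in LBL against PBL. PBL and LBL came from the same sorter but from different sorting days, and all 6 tested neutrophil markers were called lower in LBL than in PBL, whose part in the Pfkfb3 difference was not tested. For LL against PL, the fit with the sorter gave -0.50 ± 0.29 (adjusted p = 0.473).

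Adm had 0.438, 0.0766, 0, 0 and 0.329 CPM in LL (7 counts in all) and 0.158, 0.292, 0, 0.23 and 0 in LBL (6 counts). All lay below every PL or PBL library, though the highest LL library was near the lowest PBL one. By pooled counts LL was 41.7-fold lower than PL (95% interval 19.9 to 105) and LBL 12.5-fold lower than PBL (5.44 to 35.5), intervals that cover counting error only. Adm passed the filter on low counts only through PL and PBL, so that it had to be lower in LL and LBL. These ratios are therefore descriptions, and no adjusted p is given for them.

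The other induced members were not called between a first and a second LPS injection. Slc2a1 differed by -0.43 ± 0.15 (adjusted p = 0.116) in LL against PL and by -0.14 ± 0.14 (adjusted p = 0.658) in LBL against PBL. Slc2a3 differed by -0.45 ± 0.32 (adjusted p = 0.521) and 0.03 ± 0.30 (adjusted p = 0.975), and Ldha by -0.21 ± 0.11 (adjusted p = 0.358) and 0.03 ± 0.11 (adjusted p = 0.926). Among the members that fell, Pfkfb4 differed by -0.13 ± 0.15 and 0.25 ± 0.14 (adjusted p = 0.739 and 0.352) and Pdk1 by 0.04 ± 0.15 and 0.40 ± 0.14 (adjusted p = 0.935 and 0.08). Pdk1 was called in LBL against PBL without PBL replicate 1, as was Slc16a1 without LBL replicate 5. Whether depletion altered the effect of earlier LPS was tested as the difference between these differences. No member was called by edgeR or DESeq2, beside 0.0241% of all genes by edgeR (0.012% in each direction). At an unadjusted p under 0.05 there were 3 members, and adjusted values began at 0.287.

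Against saline groups, repeated LPS left the glucose transporters, Pfkfb3 and Ldha raised. LL against PP shares its PP libraries with PL against PP, and LBL against PBP shares its PBP libraries with PBL against PBP. In LL, 5 of 32 members (15.6%) were called higher beside 18.9% of all genes and 10 (31.2%) lower beside 13.2% (32.1% either way). In LBL, 5 members were again called higher and 10 lower, beside 14.6% and 13.6% of all genes (28.2% either way). The log2 fold change of Slc2a1 was 1.92 ± 0.15 in LL (adjusted p = 1.14e-12) and 2.15 ± 0.15 in LBL (adjusted p = 6.22e-14). For Pfkfb3 it was 1.39 ± 0.15 in LL (adjusted p = 4.51e-09) and 1.38 ± 0.15 in LBL (adjusted p = 4.66e-09), and for Ldha 1.18 ± 0.11 and 1.24 ± 0.11 (adjusted p = 1.58e-10 and 3.93e-11).

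Slc2a3 made up the fourth higher call in each, at 1.32 ± 0.32 and 2.48 ± 0.33 (adjusted p = 0.00198 and 7.56e-07), and the fifth was Gapdh in LL and Pfkp in LBL. Lower calls made in LL were Hk1, Hk2, Hk3, Pfkl, Pfkfb4, Aldoa, Tpi1, Pdk1, Bnip3 and Ankrd37, and in LBL they were Hk2, Pfkl, Pfkfb4, Aldoa, Tpi1, Ldhb, Pdk1, Egln1, Bnip3 and P4ha1. Pfkfb4 fell by 1.05 ± 0.14 in LL and 0.87 ± 0.14 in LBL (log2; adjusted p = 5.74e-07 and 1.26e-05). With the sorter as a covariate, 3 higher calls (Slc2a1, Pfkfb3 and Ldha) and 0 lower calls remained in each comparison. All 10 neuron markers tested were called higher in LL against PP and 4 of 10 in LBL against PBP. In LL against PP, 5 of 9 astrocyte, 4 of 8 oligodendrocyte and 4 of 5 red blood cell markers were also called higher, and 8 of 10 microglia markers lower. In LBL against PBP, 7 of 10 microglia and 4 of 8 border-associated macrophage markers were called lower. Called higher there were 3 of 9 astrocyte and 3 of 8 oligodendrocyte markers. In each comparison 1 oligodendrocyte marker was lower. The part of these cell types was not tested.

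Repopulated microglia were compared with original ones under each injection history. Without LPS, PBP against PP gave 0 called members by edgeR, beside 0.529% of all genes (0.289% higher and 0.241% lower). At an unadjusted p under 0.05 there were 5 members. DESeq2 called 1, P4ha1, which was at 406, 432, 393, 505 and 355 CPM in PP and 491, 981, 567, 524 and 439 in PBP. PBP replicate 2 was the highest, and the ranges overlapped (edgeR log2 fold change 0.52 ± 0.15, adjusted p = 0.126).

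After a first LPS injection, 3 of 32 members were higher in PBL than in PL (9.38%, beside 11% of all genes) and 4 lower (12.5%, beside 11.1%), shares near the background (22.1% of all genes either way). The higher ones were Eno2, Pfkp and Pfkm, described above with the neuron markers. Aldoa fell by 0.47 ± 0.09 (adjusted p = 0.00109), Ldhb by 0.30 ± 0.10 (adjusted p = 0.0308), Egln1 by 0.64 ± 0.20 (adjusted p = 0.0237) and Bnip3 by 0.63 ± 0.16 (adjusted p = 0.00746) on the log2 scale. In the fit with the sorter as a covariate 0 of these 7 calls were left, and of all genes tested only 3 were called in that fit. All 6 tested neutrophil markers were called higher in PBL than in PL. So were 5 of 9 tested astrocyte and 5 of 8 oligodendrocyte markers, with 1 lower in each list. Of 5 tested red blood cell markers, 3 were called higher. Called lower in PBL were 6 of 10 microglia and 6 of 8 border-associated macrophage markers, and none higher. The part of these cell types in the differences was not tested. Slc2a1 and Pfkfb3, which rose after LPS in both, were not called between these groups: Slc2a1 differed by 0.17 ± 0.15 (adjusted p = 0.41) and Pfkfb3 by 0.07 ± 0.15 (adjusted p = 0.777).

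After repeated LPS, LBL against LL gave 0 called members by edgeR, beside 1.21% of all genes (0.487% higher and 0.722% lower), and 6 had an unadjusted p under 0.05. DESeq2 called 2 higher in LBL: Slc2a1, with every LBL library above every LL library (edgeR log2 fold change 0.47 ± 0.14, adjusted p = 0.0914), and Pfkfb4, with libraries at 43.8 to 60.8 CPM in LBL and 31.0 to 52.1 in LL (0.47 ± 0.14, adjusted p = 0.105). Without LL replicate 2, edgeR called Pfkfb4 higher and Egln1 lower. LL replicates 1 to 4 were sorted on day 2 and LBL replicates 1 to 4 on day 1, so sorting day and depletion can hardly be told apart. A fit of LL and LBL alone with sorting day as a term called 0 members. In LBL against LL, 6 of 8 border-associated macrophage markers, 1 of 10 microglia markers and 1 of 5 tested endothelial and pericyte markers were called lower. Their part was not tested.

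Whether the first LPS response differed between repopulated and original microglia was tested directly as PBL minus PBP against PL minus PP. No member was called by edgeR, beside 0% of all genes, and none by DESeq2. At an unadjusted p under 0.05 there were 7 members, led by Pfkp with an adjusted p of 0.218. Responses of Slc2a1 differed by -0.06 ± 0.21, of Pfkfb3 by -0.14 ± 0.21, of Ldha by -0.18 ± 0.16 and of Slc2a3 by 0.67 ± 0.47 (log2; adjusted p = 0.922, 0.823, 0.651 and 0.551). Without PBP replicate 5, 3 members were called: Pfkp with a larger rise in repopulated mice, and Aldoa and P4ha1 with a larger fall. In that fit 310 genes were called one way and 430 the other over all genes tested. Without that library, all PBP libraries came from the Astrios and all PBL libraries from the XDP. The sorter and the LPS response of repopulated mice then cannot be told apart.

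Around the members, 99 further genes of these pathways were examined, of which 81 were tested. In PL against PP, 18 of the 81 (22.2%) were called higher and 10 (12.3%) lower, and in PBL against PBP 17 (21%) and 22 (27.2%), to be read against the same background shares as the members. Their median log2 fold change was -0.12 and -0.08. Calls of these genes in PBL against PBP are from the fit without the sorter. All PBL libraries came from the XDP, but among PBP libraries only replicate 5 did, and the part of the sorter was not tested. Of 17 HIF subunits and regulators, 7 rose (41.2%) and 1 fell (5.88%) in PL, beside 14.2% and 11.9% of all genes. In PBL 5 rose (29.4%) and 2 fell (11.8%), beside 21.5% each. Without Hif3a, 6 of 16 rose in PL and 4 in PBL.

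Hif3a (ENSMUSG00000004328, chromosome 7), a HIF alpha subunit with splice forms that oppose HIF1A, went from near 0 to clear expression. It was at 0.372, 0, 0, 0 and 0.252 CPM in PP and 6.22, 10.2, 10.7 and 6.09 in PL. It was at 0.216, 0.129, 0, 0.268 and 0.311 CPM in PBP and 5.20, 5.86, 6.63, 4.97 and 6.56 in PBL. LL lay between 4.57 and 9.20 CPM and LBL between 5.74 and 12.0. No LPS library overlapped a saline library. Counts summed to 5 in PP and 8 in PBP. Hif3a passed the filter on low counts only through LPS libraries, so that it had to differ, and no fold change is given.

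Vhl (ENSMUSG00000033933, chromosome 6), the ubiquitin ligase subunit that recognises hydroxylated HIF1A, fell. It was at 165, 158, 174, 163 and 145 CPM in PP and 53.4, 59.0, 50.7 and 52.8 in PL. In PBP it was at 148, 151, 158, 151 and 104 CPM, and in PBL at 48.2, 37.1, 40.8, 30.7 and 44.9. LPS libraries were all lower than saline ones, and PBP replicate 5 was the lowest saline library. Its log2 fold change was -1.58 ± 0.14 in PL (adjusted p = 3.6e-11) and -1.82 ± 0.13 in PBL (adjusted p = 1.6e-13). Vhl was 0.45 ± 0.13 higher in LBL than in PBL (adjusted p = 0.03).

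Siah2, a ubiquitin ligase that acts on prolyl hydroxylases, was at 1.62 to 3.92 CPM in PP, 10.1 to 12.4 in PL, 2.17 to 6.82 in PBP and 12.8 to 16.1 in PBL. It rose by 2.01 ± 0.27 and 2.01 ± 0.25 on the log2 scale (adjusted p = 3.5e-07 and 7.1e-08). Arnt, the partner of HIF1A, rose by 0.49 ± 0.12 in PL and 0.91 ± 0.11 in PBL (adjusted p = 0.0015 and 3.6e-08), and its saline and LPS libraries did not overlap. Egln2, another prolyl hydroxylase, rose by 0.68 ± 0.22 and 0.56 ± 0.21 (adjusted p = 0.02 and 0.032).

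**Figure D5:**
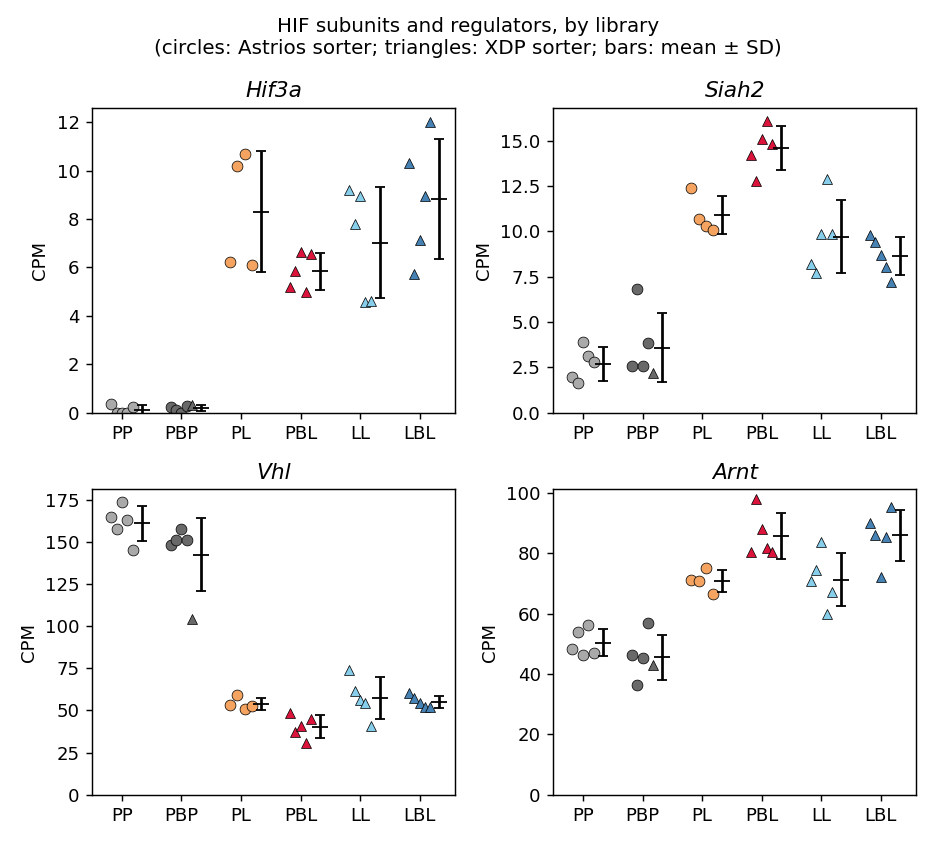
CPM (vertical axes, from 0) of 4 HIF subunits and regulators in each library by group (horizontal axes), circles for the Astrios sorter and triangles for the XDP, with mean ± SD as bars. Hif3a and Siah2 are higher and Vhl lower in every LPS library than in any saline library, and Arnt is higher in LPS libraries by a smaller step.

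Of 27 tested further HIF1A targets, 6 rose (22.2%) and 3 fell (11.1%) in PL, and 8 rose (29.6%) and 6 fell (22.2%) in PBL, beside the same shares of all genes. Bhlhe40, a transcriptional repressor, rose by 3.98 ± 0.54 and 3.20 ± 0.46 (adjusted p = 3.9e-07 and 6.7e-07). It was at 0 to 1.89 CPM in PP and 6.06 to 12 in PL. In PBP it was at 0.358 to 3.42 CPM, and in PBL at 7.46 to 29.6. With saline levels this low, the size of these rises is uncertain. Bhlhe40 was also 1.67 ± 0.43 higher in LBL than in LL (adjusted p = 0.044). It was the 1 higher call among the 81 there (1.23%, beside 0.487% of all genes), and 3 were lower (3.7%, beside 0.722%). Sorting day and depletion can hardly be told apart in LBL against LL. Jmjd6, a nuclear lysyl hydroxylase, rose by 1.44 ± 0.17 and 1.05 ± 0.16 (adjusted p = 1.5e-08 and 1.6e-06). In the opposite direction, Zfp395, a zinc finger factor, fell by 1.58 ± 0.42 and 1.88 ± 0.39 on the log2 scale (adjusted p = 0.004 and 0.00019). Ddit4, an inhibitor of mTORC1, was called in PBL (1.89 ± 0.55, adjusted p = 0.0078).

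Between a first and a second LPS injection, 1 of the 81 was higher (1.23%) and 3 were lower (3.7%) in LL against PL. Of all genes tested, 0.752% were higher and 2.03% lower there. In LBL against PBL, 5 were higher (6.17%) and 2 lower (2.47%), beside 2.74% and 4% of all genes. Higher were Aldoc in LL against PL (1.92 ± 0.52, adjusted p = 0.045) and Vhl, G6pdx, Pgd, Pdp1 and Hmox1 in LBL against PBL, by 0.35 to 0.92 on the log2 scale. Aldoc was at 14.6 to 45.9 CPM in LL, all from the XDP, and 2.49 to 15.5 in PL, all from the Astrios. Without LPS it was at 49.1 CPM in PBP replicate 5, from the XDP, and 7.52 to 10.2 in the other PBP libraries. The part of the sorter in the Aldoc difference was not tested. Among the lower ones were Bhlhe40 and Slc2a6. Bhlhe40 differed by -1.59 ± 0.45 in LL against PL (adjusted p = 0.046). Slc2a6, a GLUT family member induced by LPS in macrophages, was at 9.66 to 18.5 CPM in PL and 1.82 to 6.72 in LL, and at 13 to 20.3 in PBL and 3.26 to 9.98 in LBL, without overlap in either case. The log2 fold changes were -1.78 ± 0.38 (adjusted p = 0.004) and -1.48 ± 0.35 (adjusted p = 0.0076). In LL against PL the fit with the sorter called neither Bhlhe40 (-2.55, adjusted p = 0.241) nor Slc2a6 (-2.01, adjusted p = 0.237).

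Other branches of glucose use were called in both directions, except the pentose phosphate pathway, where no gene rose after a first LPS injection. Of all genes tested, 14.2% were called higher and 11.9% lower in PL, and 21.5% each way in PBL. Of 8 pentose phosphate pathway genes, 2 fell in PL (25%) and 4 in PBL (50%), and the others were not called. G6pdx, the entry enzyme, fell by 0.91 ± 0.13 in PBL (adjusted p = 9.1e-07). Of 15 tested genes of pyruvate entry and the pyruvate dehydrogenase complex, 1 rose and 1 fell in PL (6.67% each). In PBL 4 fell (26.7%), near the background. Pdk2, another kinase of this complex, fell with Pdk1, by 1.45 ± 0.27 in PL and 1.67 ± 0.26 in PBL (adjusted p = 8.3e-05 and 2.4e-06). Of 14 tested genes of other glycolysis, fructose and gluconeogenesis steps, 4 rose (28.6%) and 3 fell (21.4%) in PL. In PBL 4 rose (28.6%) and 6 fell (42.9%). Gpd1, glycerol 3-phosphate dehydrogenase, rose by 1.90 ± 0.32 and 2.09 ± 0.32 (adjusted p = 2.1e-05 and 3.1e-06), and Pgm2, a phosphopentomutase, by 1.16 ± 0.23 and 0.96 ± 0.23 (adjusted p = 0.00025 and 0.00096). Aldoc, the brain aldolase found in astrocytes and neurons, was at 37.7 to 80.4 CPM in PBL, 49.1 in PBP replicate 5 and 7.52 to 10.2 in the other PBP libraries, and 2.49 to 15.5 in PL. Its log2 fold change in PBL against PBP was 1.85 ± 0.47 (adjusted p = 0.0024). Eno3, the muscle enolase, fell there by 1.13 ± 0.21 (adjusted p = 5.5e-05). It was at 4.76 to 14.2 CPM in PBL, 14.6 in PBP replicate 5 and 22.5 to 25.7 in the other PBP libraries.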

How the data were processed

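The authors deposited raw counts of reads for each gene, not normalized. HTSeq 0.11.0, TopHat, cutadapt 2.10 and the build GRCm39 are among the names in the submitters' processing notes. How strand and shared reads were treated is not given in the sources used here, so overlapping and near-identical genes are uncertain. The RNA quality number is a score recorded by the authors in the deposited sample table.

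Members and gene lists were chosen with earlier results of these data known. The test was run in edgeR 4.0.16 (R 4.3.3: filterByExpr by group, TMM, robust quasi-likelihood fit of all 29 libraries, 1 coefficient per group, 23 residual degrees of freedom), with Benjamini-Hochberg adjustment over 16632 genes, two-sided, called under 0.05. SE is the log2 fold change over the square root of F. CPM uses TMM-scaled library sizes. The 1323 genes without an Ensembl identifier held 1.29% of counts. No replicate pair agreed within sampling noise (chi-square per degree of freedom 5.47 to 32.45 over 56 pairs). Since the labels do not tie libraries to separate animals any further, a p-value reflects the spread between these libraries, which may be technical. Called members that changed by 1 or more on the log2 scale were given by library. Of pathway lists, up to 4 called genes with the largest change were named, except 1 that is not reported here. Other genes were named as examples of their step after their values were seen. Alternatives were RLE scaling, no filter, DESeq2 1.42.0, sorter, sorting day, replicate number and each library left out. The fit was tested on simulated counts. Promoter windows on GRCm38.p6 and counts on GRCm39 were joined by symbol only. Intervals and limits cover counting error only.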

Additional observations from a re-analysis of the deposited data

Results flagged for a closer look

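In 65 groups of library values of the 11 members given by library, the highest or lowest library was set against the others of its group by its gap relative to the group's range (Dixon's 95% critical value), and 5 groups had one that stood out. Chance gives about 1 in 20. Slc2a3 was at 64.8 CPM in LBL replicate 1 and at 25.0 to 32.4 in the other LBL libraries. Adm was at 0.621 CPM in PBP replicate 5 and at 0 in the other PBP libraries. Ankrd37 was at 2.87 CPM in PBL replicate 1 and at 0.533 to 1.02 in the others of PBL, and at 1.03 CPM in LBL replicate 4 and at 1.71 to 1.85 in the others of LBL. Pfkp was at 30.8 CPM in LBL replicate 2 and at 11.7 to 16.6 in the other LBL libraries.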

How the results depend on the processing

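Of 76 gene calls of members, recomputed in 1182 combinations with other settings, 1037 kept direction and call, 138 lost the call and 7 reversed, and the cause was not tested. With the sorter as a covariate 48 of 76 calls were lost and among XDP libraries alone 26 of 40. PL against PP and LBL against PBL each lie within 1 sorter, so these fits do not bear on them. Within sorting day 5, PL against PP kept 10 of 12 calls. In the fit with the sorter as a covariate, members called were 5 higher and 2 lower in PBL against PBP (also among XDP libraries alone), 1 lower in LL against PL, 3 higher and 0 lower in LL against PP and in LBL against PBP, and 0 in PBL against PL. Among XDP libraries 1 was lower in LBL against PBP. The reversed values, each not called, were for Ldhb 0.04 and 0.02 (PBL against PBP, sorter and XDP alone), 0 (LBL against PBP, sorter) and 0.11 (PBL against PL, sorter), and for Aldoa 0.14 (LL against PP, sorter) and 0.07 and 0.06 (LBL against PBP, sorter and XDP alone). DESeq2 called 1 member higher in PBP against PP and 2 in LBL against LL.

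Leaving out 1 library at a time gave 0 to 1 members higher in LBL against PBL, 2 to 5 lower in PBL against PL (2 without PBL replicate 5: Aldoa and Bnip3), 0 to 1 higher and 0 to 1 lower in LBL against LL, and 0 to 1 higher and 0 to 2 lower in the difference between first LPS responses. Replicate numbers did not pair the libraries: 4 of 42 same-numbered pairs had a correlation over 0.1 (range -0.311 to 0.29), and 6 of 29 libraries matched their own number best. A fit with the replicate number as a block called 1 member lower in LBL against LL (Bnip3) and moved no other count by over 1.5 times.

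Depth limits Adm, Egln3, Vegfa, Ndrg1 and Ankrd37, which rest on few reads, as does Bhlhe40 in the saline groups. PBP replicate 5 is the only saline library from the XDP, so the fits with the sorter rest on it.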
